A study of Mus musculus with 3 samples.

Results

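The genes described here are 10 transcription factor genes that regionalise the neural plate from the future forebrain to the future hindbrain: Otx2, Sox1, Sox2, Pax6, Six3, Hesx1, Lhx2, En1, En2 and Gbx2. They were chosen by name with earlier results of these data known, so their counts and ranks are descriptions only. Every probe set that the platform annotation assigns to one of these symbols alone was taken. This gave 10 of 18193 named genes, by 17 of the 45037 probe sets on the array that are not Affymetrix controls. A single probe set measured each of 7 genes (Otx2, Sox2, Hesx1, Lhx2, En1, En2 and Gbx2), while Sox1 had 2, Six3 had 3 and Pax6 had 5.

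The vertebrate brain is divided along its length before the neural tube has closed. Sox1 and Sox2 are SoxB1 factors that keep cells of the whole neural plate in a progenitor state. The others are homeobox genes read out in bands. Six3, Hesx1, Lhx2 and Pax6 act in the forebrain and eye field, Otx2 in forebrain and midbrain, and Gbx2 in the anterior hindbrain. Otx2 and Gbx2 repress each other, and the line where they meet becomes the isthmic organiser, a source of Fgf8 and Wnt1 that maintains En1 and En2. Several of these genes are also used outside the brain: Sox2 in foregut and placental stem cells, Otx2 and Hesx1 in anterior visceral endoderm and epiblast, Pax6 in the surface ectoderm of the eye and Gbx2 in posterior tissue.

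RNA of entire mouse embryos, collected 8.5 days after mating (8.5 dpc), was measured on 3 single-channel Affymetrix arrays, 1 for a normal pool and 2 for mutant pools that the series design calls biological replicates. The normal pool held 6 C57Bl/6J litter mates without a methylation mutation, and mutant pools 1 and 2 held 8 and 6 litter mates, with both sexes in every pool. Mutant embryos were Dnmt3l-/+ on a C57Bl/6J background, from Dnmt3l-/- mothers mated with wildtype fathers, so each kept a paternal wildtype allele and lacked the methylation that Dnmt3l helps to set in the oocyte. The comparison asks how transcripts differ between embryos with and without that maternal methylation. Pooling hides the spread between embryos, and the normal group had no replicate. Dnmt3l itself gave signals of 12.2 in the normal pool, 183 in mutant pool 1 and 14.3 in mutant pool 2. Those of 2 pools were too dim to check the labels, and whether its probes lie in the deleted part was not analysed here.

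Values are array signals on a linear scale, scaled by the authors so that the trimmed mean is alike on all arrays. Median signals over all probe sets were 130.0 to 143.6. Log2 ratios compare log2(signal + 31.92) of a mutant array with the normal array, and the added 31.92, a pseudocount, makes them understate the change of dim probe sets. Limma was fitted to the 27022 probe sets bright enough to be kept, with p-values adjusted over all of them. Its spread rests on the 2 mutant arrays and assumes that normal pools vary alike, and 3 arrays limit the precision of every value.

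All 10 genes read lower in both mutant pools than in the normal pool by their brightest probe set, and none passed limma over the kept probe sets. The median log2 ratio was -0.77, with -0.94 in mutant 1 and -0.63 in mutant 2. As raw signals, with no pseudocount, the median was 48.1% of normal in mutant 1 and 61.2% in mutant 2. Over the 12913 genes with a kept probe set the median log2 ratio was -0.02, and 39.1% of them were lower in both mutant arrays. Otx2, Sox1 and Gbx2 had the lowest ratios of the 10, and En1 and Pax6 the highest. RNA came from whole embryos, so fewer cells of a type and less RNA per cell cannot be told apart for any gene here. Both mutant arrays were set against the same normal array, so a high reading on that array would lower both ratios of a gene together.

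**Figure D1:**
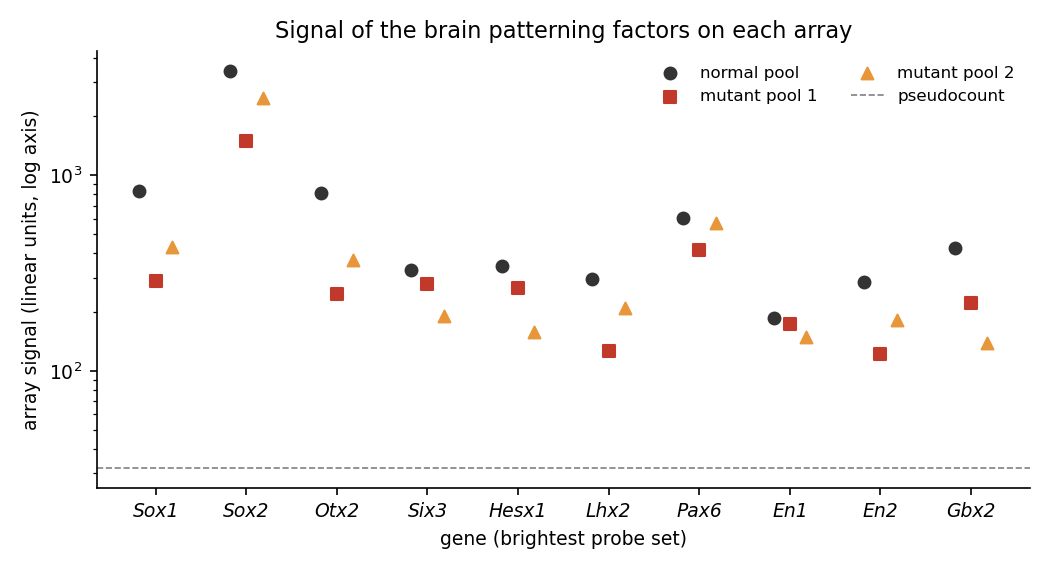
Signal of each gene's brightest probe set (linear units on a log axis) on the normal array (circles), mutant array 1 (squares) and mutant array 2 (triangles); the dashed line is the pseudocount of 31.92. The normal array has the highest of the 3 signals for every gene, and mutant 1 is below mutant 2 for 6 of the 10 (7064 of 12913 kept genes).

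Otx2, Sox1 and Gbx2 read lowest of the 10 relative to normal. The promoters of these 3 are shown with that of En1, the gene with the smallest difference. Whether CpG content bears on the ratios was not tested. Each is the 250 bases before the start farthest upstream in the RefSeq table of build GRCm38.p6, printed 5′ to 3′ on the gene's strand with CpG dinucleotides, the targets of DNA methylation, in capitals. The array values themselves name no build.
Otx2 (chr14:48667645-48667894, minus strand): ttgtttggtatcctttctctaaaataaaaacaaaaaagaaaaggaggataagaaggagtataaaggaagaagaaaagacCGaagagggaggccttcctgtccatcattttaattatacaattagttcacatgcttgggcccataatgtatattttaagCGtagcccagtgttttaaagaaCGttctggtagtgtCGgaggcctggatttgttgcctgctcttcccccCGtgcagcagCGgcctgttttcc
Sox1 (chr8:12395269-12395518, plus strand): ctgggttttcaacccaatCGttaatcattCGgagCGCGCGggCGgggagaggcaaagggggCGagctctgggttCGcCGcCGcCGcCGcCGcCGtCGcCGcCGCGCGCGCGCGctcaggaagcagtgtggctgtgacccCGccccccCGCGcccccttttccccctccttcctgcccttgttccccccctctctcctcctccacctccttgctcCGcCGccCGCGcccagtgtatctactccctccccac
Gbx2 (chr1:89931177-89931426, minus strand): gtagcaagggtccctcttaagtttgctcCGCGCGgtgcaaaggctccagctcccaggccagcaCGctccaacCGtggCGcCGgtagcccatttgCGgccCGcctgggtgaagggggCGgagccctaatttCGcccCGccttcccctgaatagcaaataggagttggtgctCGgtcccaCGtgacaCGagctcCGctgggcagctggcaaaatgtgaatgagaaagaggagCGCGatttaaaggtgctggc
En1 (chr1:120602237-120602486, plus strand): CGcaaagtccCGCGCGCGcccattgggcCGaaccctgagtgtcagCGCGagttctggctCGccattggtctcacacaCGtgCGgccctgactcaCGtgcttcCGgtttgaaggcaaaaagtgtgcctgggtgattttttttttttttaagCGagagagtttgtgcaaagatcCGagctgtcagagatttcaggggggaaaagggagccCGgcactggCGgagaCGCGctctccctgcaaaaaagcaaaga
Otx2 held 6 CpGs, the same as the median of 27025 promoters of this length, while Sox1 held 29, Gbx2 18 and En1 19. Otx2 had 4 starts listed and Sox1, Gbx2 and En1 had 1 each, and the other Otx2 starts were not analysed here. Over the 9 members in the table, the count ran from 2 in Hesx1 to 29 in Sox1 with a median of 18, and 7 were above the median of all promoters. CG was present at least once in 91.7% of all promoters. Motif searches on both strands found TAATTA, a core bound by many homeodomain proteins, in the Otx2 promoter alone among the 9 (4.91% of all promoters). ACAAT, a core bound by SOX proteins, was found in those of Otx2 and Pax6 (28.2% of all promoters). The matches in the Otx2 promoter did not overlap, and a match is a description of letters, not a binding site. Methylation was not measured on these arrays.

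Of the general neural plate factors, Sox1 (probe set 1438729_at), the earliest marker of committed neural ectoderm, read 829.7 in the normal pool against 287 and 429.6 in mutant pools 1 and 2. Both mutant signals lay far below the normal one, at 34.6% and 51.8% of it. The log2 ratio was -1.17 (SE 0.32, limma adjusted p = 0.2337), with -1.43 in mutant 1 and -0.90 in mutant 2. The other Sox1 probe set (1422205_at) read 15.3, 13.2 and 7.74, below the pseudocount on every array, and carried little information. Sox2 (1416967_at), which marks neural progenitors across the neural plate, read 3432 in the normal pool against 1503 in mutant 1 and 2472 in mutant 2. On the log2 scale the mutant pools differed from each other by 0.71, more than mutant 2 differed from normal (-0.47). Sox2 had a log2 ratio of -0.82 (SE 0.32, limma adjusted p = 0.3636).

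Otx2 (1425926_a_at), which is needed for forebrain and midbrain to form at all, read 812 in the normal pool against 247 and 367 in the mutant pools. The mutant mean was 307 ± 84.7 (SD, n = 2), or 37.8% of normal. Its log2 ratio of -1.34 (SE 0.32) was the lowest of the 10, with -1.60 in mutant 1 and -1.08 in mutant 2. Only 0.441% of kept genes had a ratio at or below it. It was the only gene of the 10 that was at least 2-fold lower in both arrays on this scale, as were 0.635% of kept genes. It did not pass limma (adjusted p = 0.1925, unadjusted p = 0.00722). For comparison, the 8 probe sets that limma called lower, 0.0296% of those kept, had log2 ratios between -2.07 and -5.69.

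**Figure D2:**
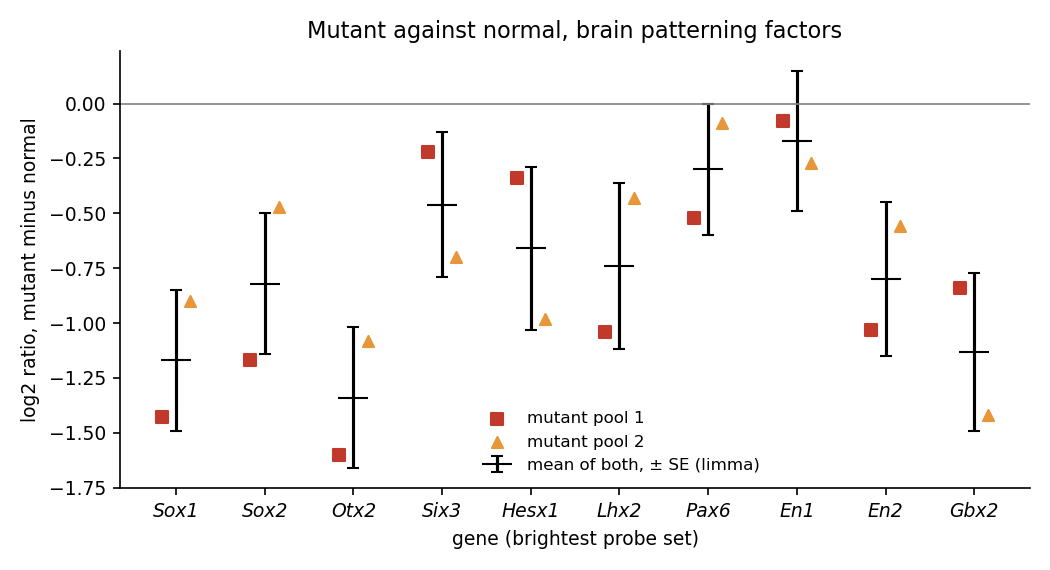
Log2 ratio of mutant to normal for each gene's brightest probe set, in mutant pool 1 (squares) and mutant pool 2 (triangles), with the mean of both and its limma SE (bar). All means are below 0, from -1.34 for Otx2 to -0.17 for En1.

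The forebrain and eye field genes read lower by smaller amounts, and none passed. Over these 4 the median log2 ratio was -0.56, with -0.43 for mutant pool 1 and -0.57 for mutant pool 2. Lhx2 (1418317_at), a LIM homeobox gene needed for eye and cortex, read 294 in the normal pool against 126 and 209 in the mutant pools. Its log2 ratio was -0.74 (SE 0.38, adjusted p = 0.4707). Hesx1 (1420604_at), a repressor of the anterior neural ridge and later pituitary, read 343 in the normal pool against 265 and 159. Its log2 ratio was -0.66 (SE 0.37, adjusted p = 0.5162), and here mutant 2 was the lower pool. Six3 (1427523_at), which protects the anterior forebrain from Wnt signals, read 329 against 277 and 191. The log2 ratio of Six3 was -0.46 (SE 0.33, adjusted p = 0.6083), with mutant 2 again lower. Its dimmer probe set 1426638_at pointed the same way at 61.9, 30.3 and 17.9. The remaining one (1426637_a_at) read 2.32 to 3.88 on all arrays, so far below the pseudocount that its ratio, -0.06, has no clear sign and became 0.02 with median centring.

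Pax6, the paired-box gene of the eye and forebrain that also acts in hindbrain and spinal cord, differed little. Its brightest probe set (1419271_at) read 608 in the normal pool against 415 and 571 in the mutant pools, for a log2 ratio of -0.30 (SE 0.30, adjusted p = 0.7107). Mutant 1 was at 68.1% of normal and mutant 2 at 93.8%. The next (1452526_a_at) read 136, 117 and 119, a log2 ratio of -0.17 (SE 0.33). The 3 dimmest probe sets, all removed by the filter on low signal, had the opposite sign. They read 53.7, 63.7 and 67.0 (1437816_at), 19.9, 42.1 and 64.4 (1456342_at), and 3.46, 19.0 and 4.60 (1425960_s_at) in the normal pool and mutant pools 1 and 2 in turn. The mean log2 ratio of the 5 probe sets was 0.14. The sign for Pax6 therefore depended on the probe set, while the 2 that were bright enough to be kept both read lower in both mutant pools.

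At the boundary of midbrain and hindbrain, Gbx2 and En2 read lower and En1 hardly differed. Gbx2 (1420337_at) read 425.5 in the normal pool against 223 and 139 in the mutant pools, or 52.5% and 32.6% of normal. Its log2 ratio was -1.13 (SE 0.36, adjusted p = 0.282), with -0.84 in mutant 1 and -1.42 in mutant 2. En2 (1418868_at), an engrailed homeobox gene of midbrain and cerebellum, read 283.5 in the normal pool against 122 and 183. The log2 ratio of En2 was -0.80 (SE 0.35, adjusted p = 0.4092). En1 (1418618_at), its paralogue and the earlier of the pair to be expressed, read 186 in the normal pool against 175 and 149.6. The log2 ratio of En1 was -0.17 (SE 0.32, adjusted p = 0.8571), and mutant 1 was at 93.7% of normal. With median centring, quantile normalization or cyclic loess the ratio of En1 in mutant 1 turned to 0.04, 0.04 and 0.05, while in mutant 2 it stayed between -0.22 and -0.23.

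By the size of single ratios, 6 of the 10 genes lay in the lowest 5% of kept genes and 3 (Otx2, Sox1 and Gbx2) in the lowest 1%. At an unadjusted p under 0.05 by limma, 4 were lower (Otx2, Sox1, Gbx2 and Sox2), as were 4.24% of kept genes, and none was higher. Over the 27022 kept probe sets 1811 were higher and 1853 lower at that p, and median centring gave 2185 and 1457. The standard errors of the 10 ran from 0.30 to 0.38, and 9 of the genes were dimmer than the median kept gene. Of the 17 probe sets, 14 were lower in both mutant arrays, as were 39.4% of all probe sets. The filter kept 11 of them, and of the 6 removed, 3 were lower in both arrays and 3 higher in both.

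The mutant pools were not lower in the same genes to the same degree. Mutant 1 was the lower pool for Sox1, Sox2, Otx2, Lhx2, Pax6 and En2, and mutant 2 for Six3, Hesx1, En1 and Gbx2. Over all kept genes, mutant 1 was the lower pool for 7064 of 12913, a similar share. The median size of the difference between the mutant arrays was 0.52 on the log2 scale for the 10 genes and 0.21 for all kept genes. Of the 10 genes, 9 were dimmer than the median kept gene, and the part of brightness in this was not tested. The largest differences were 0.71 for Sox2, the brightest of the 10, in one direction and -0.64 for Hesx1 in the other (mutant 2 minus mutant 1). With 1 array for each pool these differences had no test.

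**Figure D3:**
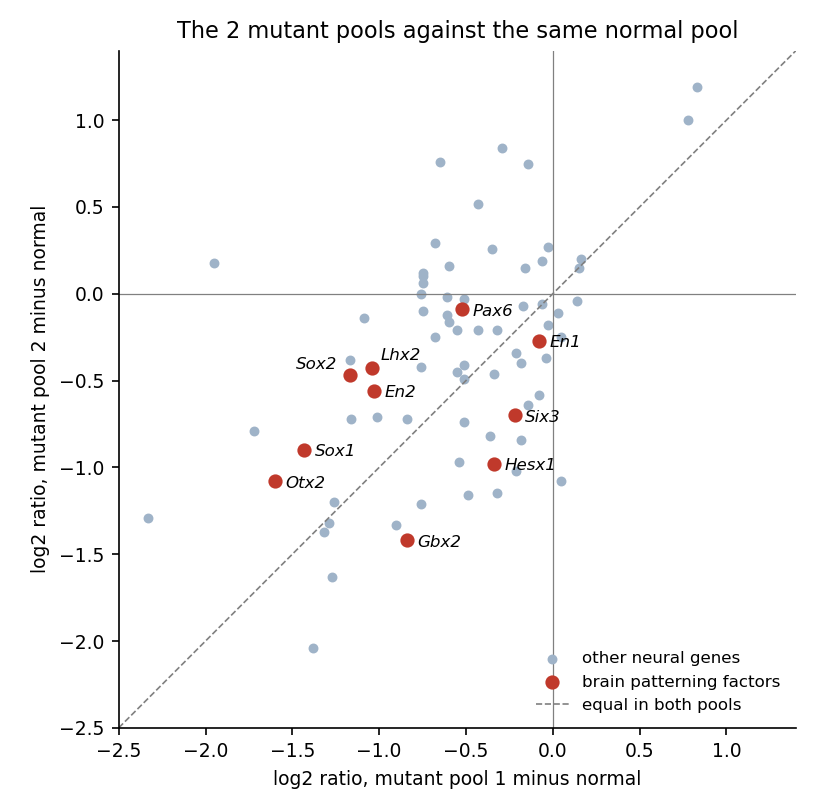
Log2 ratio to the normal array in mutant pool 1 (horizontal) and mutant pool 2 (vertical) for the 10 brain patterning factors (large, named points) and 66 other neural genes (small points); both axes share the normal array. All 10 have both ratios below 0, with Otx2, Sox1, Sox2, Lhx2, En2 and Pax6 above the line of equality and Gbx2, Hesx1, Six3 and En1 below it.

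Other genes of the same pathways, from lists drawn up by function, read lower less uniformly, and again none passed limma. Of the 66 kept genes on 5 other neural lists, 43 were lower in both mutant arrays (39.1% of all kept genes were), 4 higher in both and 19 mixed. Their median was -0.38, with -0.51 for mutant pool 1 and -0.23 for mutant pool 2. The genes on the midbrain-hindbrain boundary list had a median of -0.45 over 16 genes, of which 12 were lower in both arrays and 1 higher in both. The lowest were genes of Fgf signals. Fgf8 read 542 in the normal pool against 189 and 107, for a log2 ratio of -1.71 (SE 0.38, adjusted p = 0.1725). Fgf17 (-1.45), Fgf18 (-1.35) and the zinc finger gene Sp5 (-1.23) were each at least 2-fold lower in both arrays as well. Wnt1, the other signal of the organiser, read 309, 344 and 300.4 and hardly differed (0.05, SE 0.28). Fgf8 is also expressed in the tailbud and early heart, so its signal in whole embryos is not that of the brain alone. The part of other tissues in the signals of Fgf17, Fgf18 and Sp5 was not tested.

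Among 12 other forebrain and eye field regulators kept, 5 were lower in both arrays, a share near the 39.1% of all kept genes. Of the rest, 1 was higher and 6 were mixed. The list median was -0.28, with -0.35 for mutant pool 1 and 0.06 for mutant pool 2. Sp8, a factor of the anterior neural ridge and also of limb and tail, read 817, 422 and 306.5 (log2 ratio -1.11). Fezf1 had -0.62 and Lhx5 -0.51. Tcf7l1, a repressor of Wnt targets that forebrain formation requires, read higher at 828.5, 1445 and 1684 (0.89, adjusted p = 0.2097). The filter removed the other 8 measured genes of this list, which went both ways. The forebrain gene Fezf2 (101, 10.5 and 11.0), the eye field genes Rax (102, 27.5 and 9.49) and Six6 (105, 15.6 and 43.4), Emx1 (109, 70.1 and 18.8) and Vax2 (23.7, 14.05 and 22.8) were lower in both arrays. Nkx2-1 (7.24, 43.9 and 47.2) and Barhl2 (16.02, 33.3 and 23.7) were higher in both, and Dlx1 (8.50, 5.34 and 17.6) was mixed. Most of these signals lay near or below the pseudocount.

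Of 20 general neural plate and neural tube genes kept, 14 were lower in both arrays, 1 higher and 5 mixed, with a median of -0.46 (-0.71 and -0.38). Zic2, a zinc finger factor needed for the midline of the forebrain, read 312, 109 and 106 (-1.31). Pou3f2 (-1.81), Pax3 (-1.26) and the adhesion gene Cdh2 (-0.78) also read lower, while Sox3, the third SoxB1 gene, read 1693, 1349 and 1457 (-0.27). Set against the median of this list in each array, 6 of the 10 brain patterning genes were lower in both (Otx2, Sox1, Sox2, Lhx2, En2 and Gbx2). Pax6 and En1 were above it in both, and Six3 and Hesx1 were above it in mutant 1 and below it in mutant 2. How many of all kept genes, or of the list itself, lay below this median in both arrays was not counted. The median of the 10 relative to the list was -0.22, against -0.77 relative to the normal array.

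Of 12 hindbrain segment genes, 9 were lower in both arrays, and the list median was -0.34. Its lowest were Hoxb1 (-0.99) and Hoxb3 (-0.94), which mark rhombomeres and also mesoderm, and then Efnb2 (-0.77) and Egr2 (-0.75). Of 8 early neuron genes kept, 4 were lower in both arrays (39.1% of all kept genes were), with a list median of -0.14. Another 1, Elavl3, was higher in both (86.2, 179 and 237, log2 ratio 1.01). Stmn2 had -0.82, Isl1 -0.50 and Tubb3 -0.33. Over all 13 measured early neuron genes, with those the filter removed, the median was 0.05. On the list of anterior signalling and prechordal genes, 9 of 16 were lower in both arrays and 4 higher (median -0.38). Tdgf1 (-1.19), Ldb1, a partner of LIM homeodomain proteins such as Lhx2 (-0.93), and the Wnt antagonist Frzb (-0.83) read lowest after Fgf8. Shh, the ventral midline signal, read 1255, 664 and 1099 (-0.54).

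**Figure D4:**
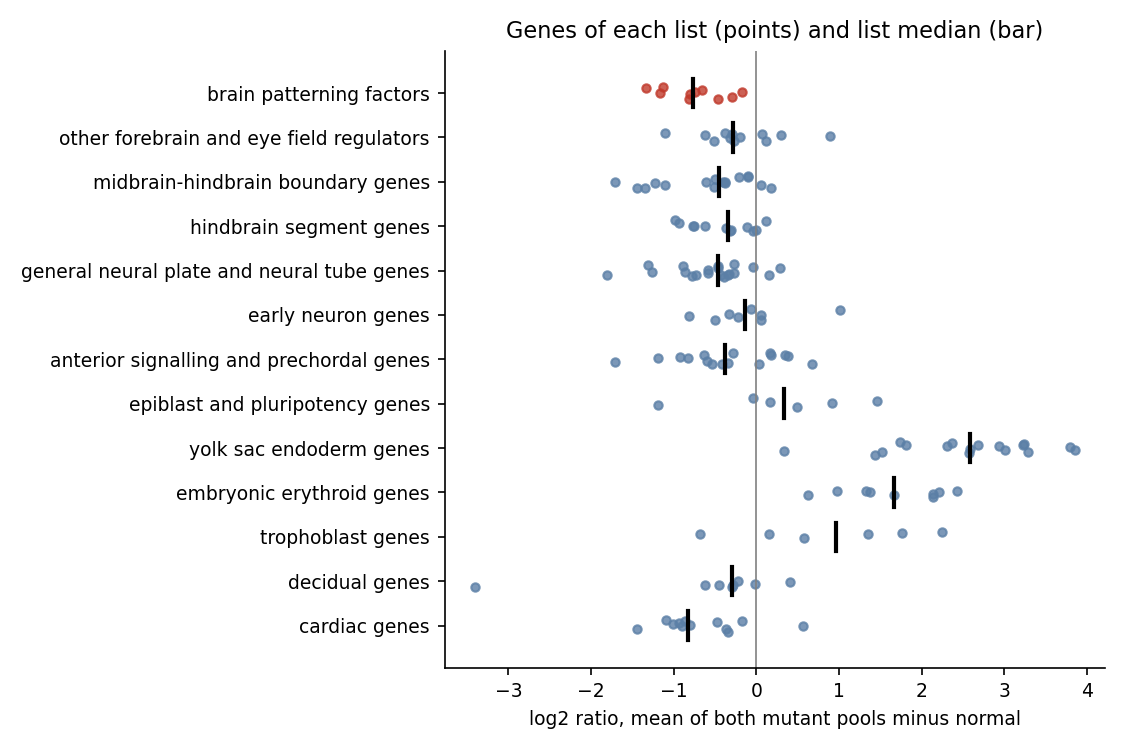
Log2 ratio of the mean of both mutant pools to the normal pool, 1 point for each kept gene of a list, with the list median as a bar; red marks the 10 brain patterning factors. Their median of -0.77 lies among the lower ones, beside cardiac genes at -0.83, and yolk sac endoderm genes lie to the right at 2.58.

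Markers of other tissues moved in the same arrays. Of 17 yolk sac endoderm genes, 17 were higher in both mutant arrays (36.5% of kept genes were) and 15 rose by limma (0.548% of all kept probe sets were called higher), with a median log2 ratio of 2.58. All limma calls, here and in the lists that follow, were lost without the filter or without the variance trend (0 higher and 0 lower in either). The summed signal of the yolk sac genes was 24720 in the normal pool against 124600 and 132900 in the mutant pools. Of 9 embryonic erythroid genes kept, all were higher in both arrays and 2 rose, Slc4a1 and Hba-x (median 1.66). Sums over the 10 measured, with Hba-a1, which the filter removed, were 34290, 69350 and 70180. Of 6 trophoblast genes kept, 4 were higher in both arrays and Esx1 rose (median 0.96). Sums over the 8 measured, with those removed, were 3088, 6675 and 5145, and Ascl2 was below the pseudocount on every array. Cardiac genes read lower, with 9 of 12 lower in both arrays (median -0.83, sums of 36120, 19600 and 27770). Of 8 decidual genes, 5 were lower in both arrays, 1 was higher and 2 were mixed (median -0.29). Prl8a2, a prolactin-family gene of the maternal decidua, fell (1376, 91.2 and 111). It made up most of the drop in the sums of this list (3768, 2100 and 2277). The part of tissue makeup in the lower signals of the brain patterning genes was not tested.

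Epiblast and pluripotency genes, listed because Sox2, Otx2 and Hesx1 are also active in epiblast, went both ways. Of 6 kept, 4 were higher in both arrays and 1 was lower, with a median log2 ratio of 0.33. Over all 10 measured, with those the filter removed, the signals summed to 1154, 1698 and 1324. Utf1 read 135, 542 and 336 (1.46), Dppa4 had 0.91, Klf4 0.49 and Esrrb 0.16, while Tdgf1 had -1.19 and Dppa5a -0.04, and none passed. The filter removed Pou5f1 (133, 107 and 13.2), Fgf5 (52.6, 10.8 and 9.78), Nanog (17.6, 37.0 and 8.11) and Zfp42 (39.4, 138 and 148). The first pair was lower in both arrays, Nanog was mixed and Zfp42 was higher in both. The part of epiblast cells in the signals of Sox2, Otx2 and Hesx1 was not tested.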

How the data were processed

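The authors' deposited values are array intensity signals, 1 per probe set and array, made with GCOS and MAS5 per the submitters' processing notes, which give no versions or settings. Leaving out the highest and lowest 2% of values, the mean signal was 500 on all 3 arrays, so each had been scaled to it. RNA was extracted with Trizol and labelled with biotin, per the labels' protocols. The deposited table held 45101 probe sets, of which 64 controls were left out. The platform annotation gave 34945 probe sets 1 symbol, 932 several and 9160 none.

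The pseudocount of 31.92 was the median over arrays of the 20th percentile. A probe set was kept if the mean of its 2 group means of log2 values reached the 40th percentile. Limma 3.58.1 in R 4.3.3 (lmFit, then eBayes with a variance trend) was run on all 3 arrays, two-sided, with Benjamini-Hochberg adjustment and a threshold of 0.05. It had 1 residual and 4.52 prior degrees of freedom. The fit was tested on simulated arrays of this design, where false calls made up a larger share of all calls than the threshold allows. A gene stands by its brightest kept probe set, or its brightest where none was kept.

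The members and lists were chosen with earlier results of these data known, so lists are described by counts and medians with no test. From each list, genes that passed were counted and some named, or otherwise up to 4 kept genes with the largest ratio in the less changed mutant array were named, with others as marked. Wnt1, Sox3, Shh, Esrrb, Dppa5a and all genes the filter removed were named after their values were seen. Genes on a list without a probe set of 1 symbol were not analysed here. Sp8, Irx3, Fgf8 and Tdgf1 stand on more than 1 list. Promoters were matched by symbol for 9 of 10 members. Alternatives covered the pseudocount, filter, scaling, variance trend, probe set choice and each mutant array.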

Additional observations from a re-analysis of the deposited data

How the results depend on the processing

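The normal group was 1 pool, so no setting shows whether it was typical. The median log2 ratio of the 10 genes, -0.77, lay between -0.67 and -0.81 over the pseudocounts, filters and scalings tried, was -0.70 with the mean of each gene's probe sets, and ranged from -0.63 to -0.94 when either mutant array was left out. It moved to -0.46 with all 17 probe sets counted singly and to -0.22 relative to the general neural list, a setting chosen after seeing the data. The count of genes lower in both mutant arrays was 10, or 9 with median centring, quantile normalization, cyclic loess (En1 the exception in each) or the mean of probe sets (Pax6 the exception). Over 98 alternative values of the 10 brightest probe sets the sign never turned, but many of these values could not turn. The filter and the variance trend leave a probe set's ratio unchanged. Leaving out 1 mutant array gives the ratio of the other, already below 0 for all 10 genes. The Six3 probe set 1426637_a_at was the only one of 17 to reverse (0.02, median centring). No member passed under any setting that gave a test. Otx2 had the lowest adjusted p of any, between 0.1592 and 0.3605. The limma calls over the kept probe sets, 148 higher and 8 lower, were 0 and 0 without the filter (2423 and 2451 at an unadjusted p under 0.05), 0 and 0 without a variance trend (1641 and 1814), and 263 and 24 with median centring. No paired analysis was possible because the normal group has 1 array. The stricter filter removed En1 and En2, for which it gave no test.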
